A study of Arabidopsis thaliana with 12 samples.

Results

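PRK (AT1G32060) and SBPASE (AT3G55800) of Arabidopsis thaliana encode a pair of enzymes that rebuild the CO2 acceptor of the Calvin cycle. Each was read by 1 probe that listed no other gene, so 2 genes are described of 691 that had a probe to themselves, on a table of 3439 probes. The arrays held total RNA of the wild type (WT) and of prpl11, a mutant without the plastid ribosomal protein PRPL11, both in ecotype Columbia 0. There were 6 arrays of each genotype, numbered 1 to 6 in the labels. The sources used here give no tissue, plant age or growth conditions, and nothing says that the arrays came from separate plants, so p-values measure the spread between arrays, which may be technical. PRPL11 itself had no probe among the listed genes, and the genotype labels were not checked against it.

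In the Calvin cycle, Rubisco adds CO2 to ribulose bisphosphate, and most of the later steps turn the products back into that acceptor. Sedoheptulose bisphosphatase, the product of SBPASE, removes a phosphate from sedoheptulose bisphosphate in an irreversible step that commits carbon to regeneration. Phosphoribulokinase, the product of PRK, uses ATP to make ribulose bisphosphate from ribulose phosphate, the last step of the cycle. Both enzymes are made from nuclear genes, work in the chloroplast stroma and are switched on in the light when thioredoxin reduces them. PRK is also held inactive in the dark in a complex with glyceraldehyde phosphate dehydrogenase and the small protein CP12.

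The deposited values are intensities in arbitrary units, with array sums between 3597 and 3678 and array medians between 0.567 and 0.611. Neither gene was listed at 0 on any array, and both had moderate signals. PRK stood at 1.31 to 1.57 times the array median on WT arrays and at 0.832 to 1.16 times on prpl11 arrays. SBPASE stood at 1.07 to 1.32 times the array median on WT arrays and at 1.02 to 1.20 times on prpl11 arrays. The 5 listed light-reaction genes mark green tissue, but they were known from earlier work on these values and are no independent check of tissue. Their WT mean intensities were all above the array medians. These were 27.5 for PSBW, 19.2 for LHB1B2, 4.64 for PSAN, 2.48 for PSB27 and 1.35 for PSBY, though brightness is not comparable as transcript level between probes. None of the 8 listed markers of flowers, roots, seeds and senescence had a probe of its own, so a difference in tissue make-up was not tested. In RNA from whole samples, fewer cells of a type and less RNA per cell cannot be told apart.

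Whether prpl11 changed the transcripts of the acceptor-regenerating enzymes was asked first for PRK. PRK transcripts fell by 29.8% in prpl11, the linear equivalent of the fitted log2 change, and no prpl11 array reached the lowest WT array. On WT arrays the PRK intensity had a lowest value of 0.773, a median of 0.817 and a highest value of 0.902. On prpl11 arrays it had a lowest value of 0.508, a median of 0.564 and a highest value of 0.666. The groups did not overlap, which was true in this direction of 107 of 3331 tested probes (3.21%).

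The mean PRK intensity was 0.822 ± 0.050 in WT and 0.579 ± 0.072 in prpl11 (SD, n = 6 arrays each). The PRK log2 value after quantile normalization fell by 0.51 ± 0.10 (SE; adjusted p = 0.00515 in limma), with a 95% interval from -0.72 to -0.30. This PRK call was lost when neighbouring replicate numbers were averaged (adjusted p = 0.205 in limma) and with a random block for each genotype in each pair of neighbouring numbers (0.0925). In limma, 184 of 3331 probes passed an adjusted p of 0.05 (5.52%), 102 of them lower in prpl11 (3.06%) and 82 higher (2.46%). The split was 122 lower and 58 higher with median centring, and 130 lower and 51 higher without normalization. PRK ranked 13 by size of decrease among the 665 tested probes with a single gene, and 2.88% of all tested probes had a larger change in either direction.

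**Figure D1:**
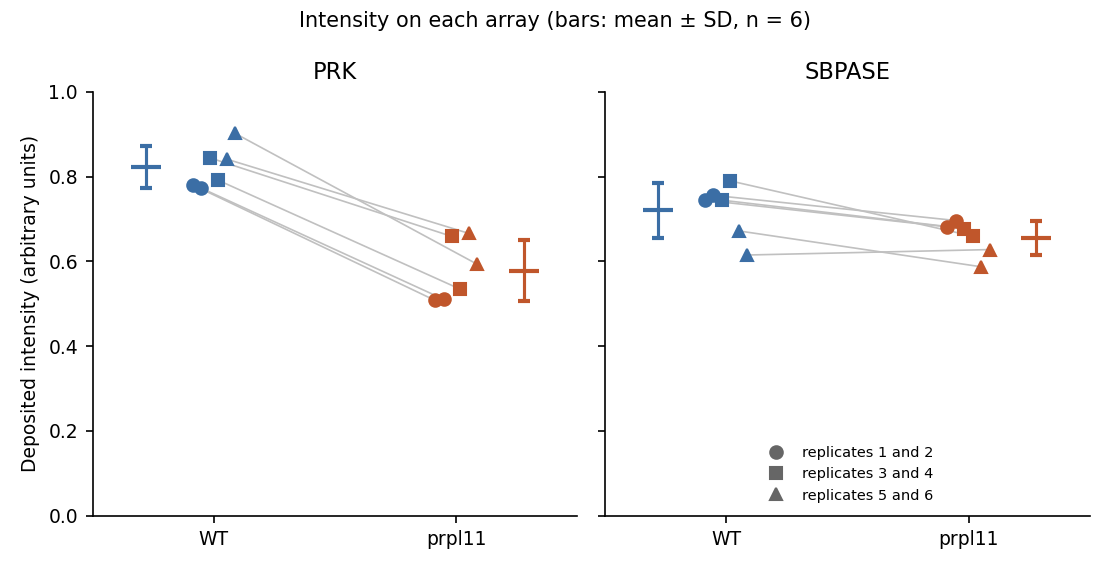
Deposited intensity (arbitrary units) of PRK and SBPASE on each array, with grey lines joining arrays of the same number, marker shapes for the pairs of neighbouring numbers, and bars for the mean ± SD (n = 6 arrays). All 6 prpl11 arrays sit below all 6 WT arrays for PRK, between 0.508 and 0.666 against 0.773 to 0.902, while the SBPASE groups overlap.

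Within same-numbered arrays PRK was lower in prpl11 in 6 of 6 pairs, as were 11.9% of tested probes. The intensity went from 0.781 to 0.508 in pair 1, from 0.773 to 0.511 in pair 2 and from 0.845 to 0.659 in pair 3. It went from 0.792 to 0.534 in pair 4, from 0.842 to 0.666 in pair 5 and from 0.902 to 0.593 in pair 6. The size of the decrease varied between pairs, with log2 differences of these deposited values from -0.62 in pair 1 to -0.34 in pair 5, and from -0.68 to -0.32 in the same pairs after quantile normalization. With the replicate number as a block the same PRK change had an SE of 0.06 and a limma adjusted p of 0.000934, and 649 of 3331 probes passed (19.5%).

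SBPASE was slightly lower on average in prpl11, and this difference did not pass the test. On WT arrays the SBPASE intensity had a lowest value of 0.615, a median of 0.745 and a highest value of 0.790. On prpl11 arrays it had a lowest value of 0.587, a median of 0.669 and a highest value of 0.697. The groups overlapped, because WT replicates 5 and 6 were as low as prpl11 arrays.

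The mean SBPASE intensity of the 6 arrays was 0.720 ± 0.064 in WT against 0.655 ± 0.041 in prpl11 (SD). The SBPASE change was -0.13 ± 0.06 on the log2 scale (SE; adjusted p = 0.376 in limma), with a 95% interval from -0.26 to 0.01. The PRK estimate lies outside that interval, which still allows a decrease of SBPASE to -0.26 on the log2 scale. A larger change in either direction was found for 31.3% of tested probes. SBPASE was lower in prpl11 in 5 of 6 pairs, as 21.9% of probes were in at least 5 pairs, and the normalized log2 differences ran from -0.20 in pair 4 to 0.05 in pair 6 (-0.26 and 0.03 as deposited). With the replicate block the 95% interval of the SBPASE change was -0.22 to -0.03 and its limma adjusted p over all probes 0.0702.

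**Figure D2:**
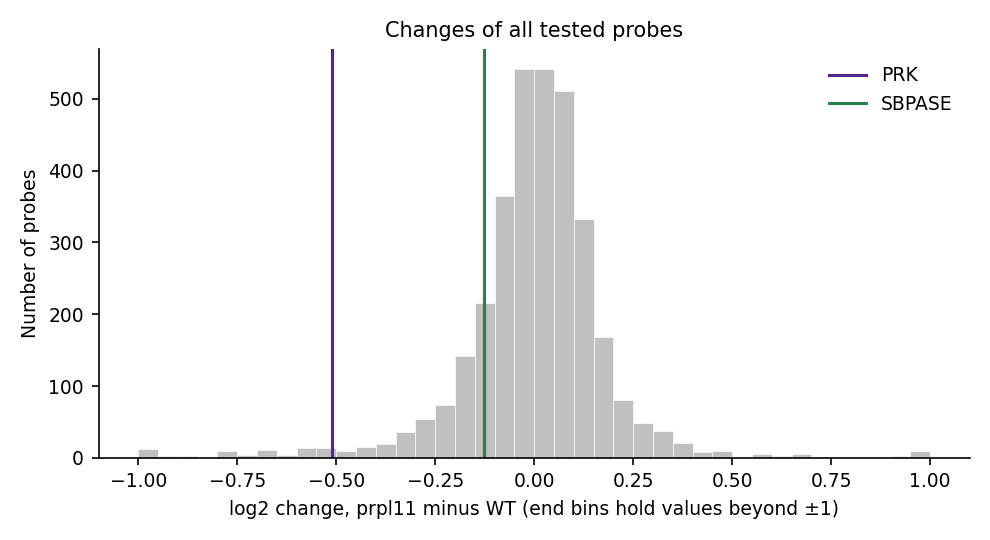
Number of probes by log2 change, prpl11 minus WT, over the 3331 tested probes, with lines at PRK (-0.51) and SBPASE (-0.13). PRK lies in the thin lower tail, and SBPASE on the lower flank of the central bulk, whose median is 0.01.

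The 2 genes were then set against each other on each array, which asks whether they changed by different amounts and does not depend on how an array was scaled. Relative to SBPASE, PRK was lower in prpl11. Different probes can bind and label differently, so a PRK to SBPASE ratio of 1 does not mean equal numbers of transcripts, and only its change is read.

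On WT arrays the ratio of PRK to SBPASE intensity was 1.05, 1.02, 1.13, 1.002, 1.25 and 1.47 for replicates 1 to 6. On prpl11 arrays it was 0.745, 0.733, 0.972, 0.810, 1.13 and 0.944. The 5 other prpl11 arrays lay below all WT arrays. The groups overlapped only through prpl11 replicate 5, which lay above WT replicates 1, 2 and 4 and close to WT replicate 3.

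The mean ratio was 1.15 ± 0.18 in WT and 0.890 ± 0.16 in prpl11 (SD, n = 6). On the log2 scale the ratio differed by -0.38, with means of 0.19 ± 0.21 in WT and -0.19 ± 0.25 in prpl11 (SD, two-sided exact permutation test over arrays, p = 0.0195, smallest possible 0.00216). It was lower in prpl11 in 6 of 6 pairs, by -0.64 in pair 6 to -0.14 in pair 5. Permuting genotype within pairs gave a two-sided exact p of 0.0313, the smallest that 6 pairs allow. These tests treat arrays or pairs as independent. With neighbouring replicate numbers averaged, the ratio difference stayed at -0.38 and the exact permutation p was 0.1, the smallest possible there. Without replicates 1 and 2 of both genotypes the ratio difference was -0.33 (two-sided exact permutation p = 0.0571), and without replicates 3 and 4 it was -0.44 (p = 0.0857, same exact permutation test), where 0.0286 is the smallest possible.

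**Figure D3:**
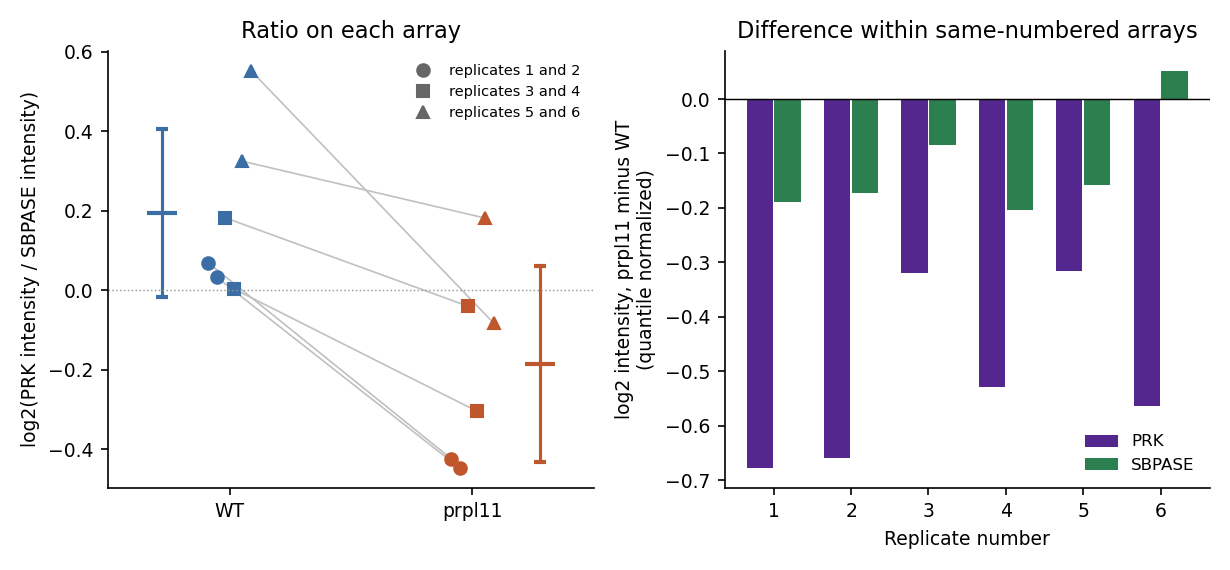
Left, log2 ratio of PRK to SBPASE intensity on each array, with grey lines joining same-numbered arrays and bars for the mean ± SD (n = 6). Right, difference in normalized log2 intensity between prpl11 and WT for each replicate number. The ratio falls along all 6 lines, and PRK differences run from -0.68 to -0.32 while those of SBPASE run from -0.20 to 0.05.

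Within a genotype, arrays with neighbouring numbers (1 and 2, 3 and 4, 5 and 6) were on average closer to each other than to other arrays. For PRK the mean normalized log2 difference was 0.08 inside sets against 0.12 between sets in WT, and 0.16 against 0.30 in prpl11. However, prpl11 replicates 3 and 4 differed by 0.34 in PRK. The genes ordered these 3 sets of arrays differently. PRK had WT set means of 0.777, 0.818 and 0.872 for replicates 1 and 2, 3 and 4, and 5 and 6, and prpl11 set means of 0.510, 0.597 and 0.630. SBPASE had WT set means of 0.750, 0.767 and 0.644 and prpl11 set means of 0.689, 0.669 and 0.608. In both genotypes replicates 5 and 6 thus held the highest mean of PRK and the lowest mean of SBPASE. The labels do not say what these sets are.

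The PRK to SBPASE ratio combined both orders. Its WT set means were 1.04, 1.07 and 1.36, and its prpl11 set means 0.739, 0.891 and 1.04, so the mean of prpl11 replicates 5 and 6 was about that of WT replicates 1 and 2. Inside every set the ratio was lower in prpl11, by -0.49, -0.26 and -0.39 on the log2 scale. PRK itself was lower in every set, with mean log2 differences of deposited intensity of -0.61, -0.46 and -0.47. After quantile normalization these PRK differences were -0.67, -0.42 and -0.44. For SBPASE the deposited differences were -0.12, -0.20 and -0.08 and the normalized ones -0.18, -0.14 and -0.05, so which set showed the larger SBPASE decrease depended on the scaling.

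Averaging the neighbouring arrays to 3 values per genotype left the PRK change at -0.51, and its limma adjusted p of 0.205 was the highest of 26 alternatives, which ran from 0.000934. With the sets as a block on those averages the limma adjusted p for PRK was 0.0257. Without replicates 3 and 4 of both genotypes PRK had -0.56 with a limma adjusted p of 0.0528.

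Across the 12 arrays the normalized log2 values of PRK and SBPASE had a Pearson correlation of 0.31, and of -0.36 after the genotype means were taken out. These are descriptions, because the arrays share sets and are not independent. Among 652 other single-gene probes never listed at 0, SBPASE ranked 136 in likeness to PRK by the first value and 495 by the second. The genes most like PRK were AT2G30100 (0.94), AT4G30740 (0.92), AT1G13990 (0.92), AT3G09080 (0.88) and AT1G21660 (0.88), correlations over 12 arrays.

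This measure includes the difference of PRK between genotypes, so it favours genes that were lower in prpl11. After genotype means were taken out, the correlations with PRK were 0.90 for AT2G30100, 0.69 for AT4G30740, 0.67 for AT1G13990, 0.53 for AT3G09080 and 0.46 for AT1G21660. AT2G30100 then ranked 3 of 652 in likeness to PRK, and the other 4 ranked between 62 and 168. The genes most like SBPASE were AT3G16760 (0.94), AT2G39100 (0.85), AT1G48570 (0.83), AT3G25680 (0.82) and AT5G19050 (0.82), correlations over the same arrays. For them the correlations with SBPASE stayed between 0.75 and 0.93 without the genotype means, with ranks between 1 and 29.

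How the rest of carbon fixation behaved could be seen for few genes. Of 23 listed Calvin cycle enzymes 3 had a probe of their own: PRK itself fell, none rose and 2 did not pass in limma, where 3.06% of all probes were called lower and 2.46% higher. The third, AT5G44520, had intensities of 0.387 ± 0.014 in WT and 0.404 ± 0.023 in prpl11 (SD, n = 6) and changed by 0.07 ± 0.05 in log2 (SE; adjusted p = 0.623 in limma). The median change of the 3, -0.13, is the SBPASE value itself, so it adds nothing about other enzymes. The median of all tested probes was 0.01. None of 13 listed genes of photorespiration and none of 8 for starch, sucrose and triose phosphate export had a probe of its own.

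Among 23 listed regulators and Rubisco assembly factors 3 were measured and none passed in limma without a block. NTRC, a plastid NADPH-dependent thioredoxin reductase that helps to keep stromal enzymes reduced, varied widely, from 0.570 to 0.865 in WT and from 0.529 to 0.897 in prpl11. Its log2 change was 0.06 ± 0.12 (SE), with a 95% interval from -0.21 to 0.32. AT2G04700 and AT3G47650 were also listed from general knowledge and have no gene name in RefSeq. AT2G04700 had a log2 change of -0.04 ± 0.06 (SE), and AT3G47650 had -0.12 ± 0.07 (SE, limma adjusted p = 0.403). AT3G47650 was lower in 6 of 6 pairs, as were 11.9% of tested probes. Its limma adjusted p was 0.041 with the replicate block, where 9.19% of probes were called lower, and 0.264 for averaged neighbours with a set block. Its change was -0.21 without normalization. The median change of these 3 genes, -0.04, is the AT2G04700 value itself.

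The 5 listed genes of photosynthetic electron transport and light capture did not share one direction with PRK. This list was known from earlier work on these values, so it does not stand for all light-reaction genes on the arrays. Of these 5, PSAN, a subunit of photosystem I, rose by 0.62 ± 0.06 in log2 (SE, limma adjusted p = 3.84e-05). None fell and 4 did not pass, in the fit that called 5.52% of all probes. The median change of the 5 was 0.15. With the replicate block PSB27, a photosystem II assembly factor (limma adjusted p = 0.047), and LHB1B2, a light-harvesting protein whose probe near-identical family members may share (0.0473), passed as higher, and PSBY, a small photosystem II protein (0.0198), passed as lower, beside 10.3% of all probes higher and 9.19% lower with that block. For averaged neighbours with a set block none of these 3 passed (limma adjusted p of 0.241, 0.103 and 0.141). The fitted log2 changes were 0.15 for PSB27, 0.19 for LHB1B2 and -0.19 for PSBY, and without normalization they were 0.04, 0.32 and -0.23.

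**Figure D4:**
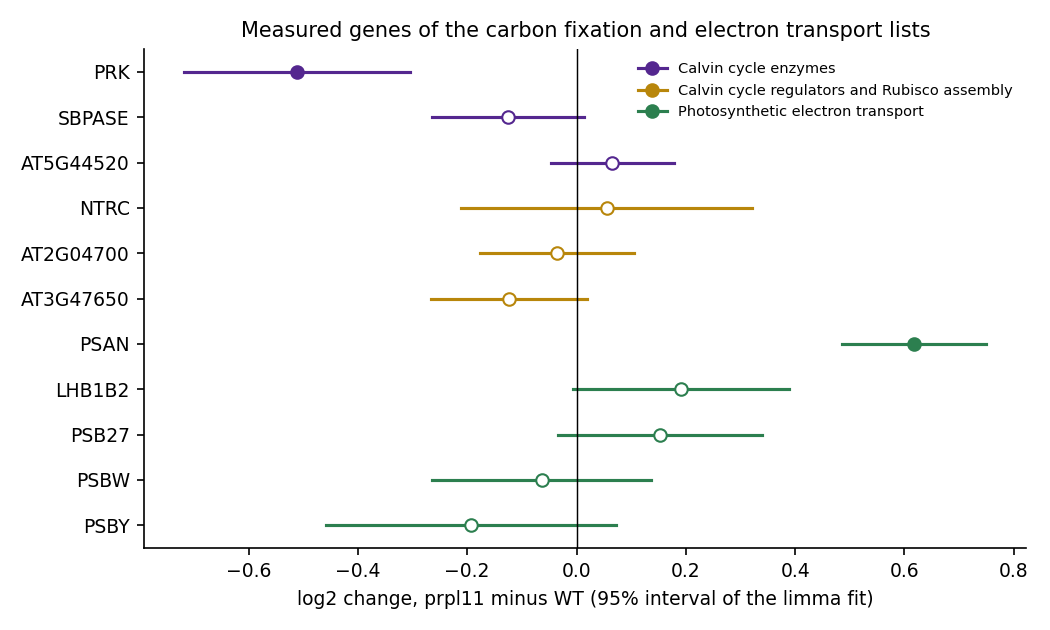
Log2 change, prpl11 minus WT, with its 95% interval from limma for each listed gene that had a probe of its own; filled points passed an adjusted p of 0.05 and open points did not. PRK at -0.51 and PSAN at 0.62 are the filled points, and the intervals of SBPASE and of the other 8 genes include 0.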

How the data were processed

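Transcripts were measured on 12 arrays, 6 of WT and 6 of prpl11, grouped by their titles. The deposited table holds 1 linear intensity per probe and array. The array sums are similar, but the sources used here do not say how the values were scaled. They also name no background correction, array type or software. Entries of 0 were raised to a floor of 0.0583, which is percentile 1 of the positive values, log2 was taken, and the arrays were quantile normalized because their log2 medians spanned 0.11, above a limit of 0.1. Leaving out 108 probes that were 0 on every array, 3331 were tested with limma 3.58.1 in R 4.3.3 (lmFit, eBayes, no block, Benjamini-Hochberg over all tested probes, threshold 0.05). Figures used matplotlib 3.10.9. Mean intensities and the PRK to SBPASE ratio are as deposited. The number of arrays limits the precision.

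Gene symbols were looked up by identifier in RefSeq's table for TAIR10.1, which lacked 2 of the 692 probes with a single gene. Coordinates are left out, because no build is named in the files. Deviations from the genotype means correlated between same-numbered arrays at 0.288 to 0.514 over probes, above 0.1 in 6 of 6 pairs, so the numbers were taken to pair the arrays; this pairing comes from the data and not from the labels. Named genes are PRK, SBPASE, the 5 genes most correlated with each, and measured members of the gene lists. Members and lists were chosen with earlier results of these data known. Alternatives covered normalization, pseudocount, filters, blocks, averaging, weights, variance priors and omitted arrays. The fit was tested on simulated data with independent arrays. That simulation held no pairs or sets of arrays, so it cannot show how the fit behaves with the likeness between arrays seen here.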

Additional observations from a re-analysis of the deposited data

How the results depend on the processing

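The PRK change kept its sign in 26 of 26 alternatives, from -0.56 to -0.38, and its call in 23. The call was lost with neighbouring numbers averaged (-0.51) and with a random block for each genotype in each set (-0.51), which treat fewer arrays as independent. It was also lost without replicates 3 and 4 of both genotypes (-0.56). Leaving out replicates 1 and 2 or 5 and 6, with equally few arrays, kept the PRK call (limma adjusted p of 0.0397 and 0.0196). SBPASE stayed lower and uncalled in 26 of 26, from -0.16 to -0.09. The ratio difference lost its call with averaging (-0.38, exact permutation p = 0.1, the smallest that 3 values per genotype allow) and without replicates 1 and 2 (-0.33) or 3 and 4 (-0.44), and kept it in the other 16. The smallest PRK change (-0.38), SBPASE change (-0.09) and ratio difference (-0.28) all came with the pseudocount, so an offset added to the intensities shrank them. Leaving out single arrays gave -0.56 to -0.46 for PRK, -0.16 to -0.10 for SBPASE, -0.45 to -0.31 for the ratio and 142 to 179 called probes. Against 184 called probes there were 649 with the replicate block, 23 with averaging, 138 with averaging and the sets as a block, 72 with the random block, and 110 and 88 without replicates 1 and 2 or 3 and 4; of the 649, 183 were among the 184. The replicate block changed no call of PRK, SBPASE or their ratio.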
